A study of Mus musculus with 2 samples.

Results

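The ERK feedback genes are a set of 10 genes named for this comparison: the sproutys Spry1, Spry2 and Spry4, the sprouty-related Spred1 and Spred2, the dual-specificity phosphatases Dusp4, Dusp5 and Dusp6, and the ETS transcription factors Etv4 and Etv5. They were chosen by name, with earlier results of these data known, and matched through the RefSeq accessions of the array probes. All 10 had a probe, 13 probes in all, and 12 probes of 9 genes were bright enough to be tested among 21337 genes. Spry4 was not.

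Receptor tyrosine kinases, such as the FGF receptors, signal through RAS, RAF and MEK to the kinase ERK. Active ERK switches on genes whose products act back on the pathway. Sprouty and SPRED proteins restrain the step between receptor and RAF, DUSP proteins remove the activating phosphates from ERK, and Etv4 and Etv5 are transcription factors that carry part of the response. Their transcripts are therefore widely used as readouts of FGF and ERK activity, and in the developing kidney and ureter several are known to respond to FGF or GDNF signals.

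Ureters of wildtype NMRI mouse embryos of mixed sex were dissected at E12.5 and kept on transwell membranes for 18 h, either with 10 µg/ml NOGGIN, a secreted antagonist of bone morphogenetic proteins (BMPs), or without it as the control. Each of 2 two-colour Agilent arrays carried 1 control and 1 NOGGIN RNA, and the dyes were exchanged between replicate 1 and replicate 2. The labels do not say whether the replicates came from separate litters or cultures, so the spread between these arrays may be technical. The p-values and confidence intervals rest on that spread, moderated in limma toward a value taken from all genes. The number of arrays limits the precision. RNA of whole ureters was measured, so fewer cells of a type and less RNA per cell cannot be told apart.

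The labels were checked first on direct BMP target genes, which an antagonist of BMPs is known to lower. With the dyes as labelled, all 8 of 8 were higher in the NOGGIN-labelled channel. Id1 was higher by 1.98 ± 0.62 on the log2 scale (SD, n = 2 arrays), Id2 by 2.73 ± 0.87 and Smad6 by 1.01 ± 0.17. In the authors' deposited table these genes carry the reverse sign, with signed folds of -2.82 and -5.67 for Id1 on replicates 1 and 2. The table itself does not state which condition is the numerator, but the sample titles read NOGGIN treated vs control. If its folds follow that order, these 8 genes were lower with NOGGIN, and Spry1, Spry2 and Dusp6 were higher. The labelled dyes and the table read in that order give opposite directions, so the direction of every ratio is not settled. Values below follow the dyes in the labels and are written as NOGGIN-labelled over control-labelled channel. Turning the sign would swap higher and lower in each sentence and leave every size, error and p unaltered.

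Of the 9 tested ERK feedback genes, 3 differed between the channels: Spry1, Spry2 and Dusp6, all lower in the NOGGIN-labelled channel, by 1.59-fold, 1.74-fold and 1.59-fold. Spred2 was lower on both arrays, but its difference did not pass the test. Spred1, Dusp4, Dusp5, Etv4 and Etv5 had mean log2 ratios between -0.13 and 0.05 and did not pass. A gene passed at an adjusted p below 0.05 in limma, with Benjamini-Hochberg adjustment over all genes. Against the 3 of 9 members, 33.3%, that were lower, 4.03% of all genes were lower, 3.95% were higher and 7.97% passed in either direction. Because the set was chosen with earlier results of these data known, this contrast is a description and not a test. The median log2 ratio of the 9 genes was -0.13, and that of all genes was 0.00083.

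**Figure D1:**
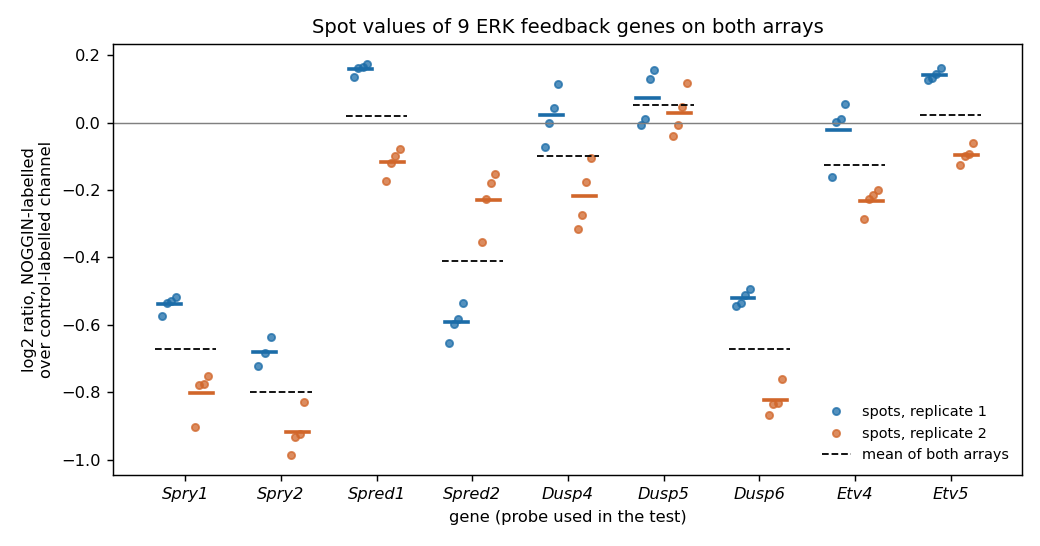
Log2 ratio of NOGGIN-labelled over control-labelled channel (vertical axis) for each spot of the probe tested for 9 ERK feedback genes (horizontal axis). Points are spots, coloured lines are array means and dashed lines are means of both arrays. Spry1, Spry2 and Dusp6 lie below -0.49 in every spot, while the other genes except Spred2 straddle or sit near 0.

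Sprouty genes encode feedback inhibitors that act between receptors and RAF. Spry1, which restrains GDNF-RET signalling in the kidney, had normalised log2 signals of 12.75 and 12.86 in the control-labelled samples of replicates 1 and 2, and of 12.21 and 12.06 in the NOGGIN-labelled samples. Both NOGGIN-labelled values lay below both control-labelled values, and the same holds for Spry2 and Dusp6 below. Of all genes, 33.1% had a ratio below 0 on both arrays, and the share without overlap was not counted. The separation is therefore a description and adds no support to the calls. The log2 ratio was -0.54 on replicate 1 and -0.80 on replicate 2, with a mean of -0.67 ± 0.19 (SD, n = 2), a 95% confidence interval from -0.91 to -0.43 and an adjusted p of 0.0197 in limma. Of all genes tested, 1.74% had a lower ratio.

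Spry2, a close relative of Spry1, had signals of 10.41 and 10.57 in the control-labelled samples and of 9.73 and 9.65 in the NOGGIN-labelled samples. The groups again did not overlap. The log2 ratio was -0.68 and -0.92, with a mean of -0.80 ± 0.17 (SD, n = 2), a 95% confidence interval from -1.03 to -0.57 and an adjusted p of 0.0115 in limma. It was the one member that reached 1.5-fold on both arrays, against 1.55% of all genes in the lower direction, 1.35% in the higher and 0.0375% in opposite directions. In the authors' deposited table Spry2 has signed folds of 1.65 and 2.03, the reverse of the sign used here.

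Spry4 was too dim to be tested. Its raw mean signals were 158 and 74.5 in the control-labelled samples and 64.8 and 147 in the NOGGIN-labelled samples. On each array the raw signal was higher in the red channel, control-labelled on replicate 1 and NOGGIN-labelled on replicate 2, but the probe was well above background in the green channel and not in the red one. Its log2 ratio was 0.17 on replicate 1 and -0.35 on replicate 2.

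Dusp6 encodes a cytoplasmic phosphatase selective for ERK, and its transcript is a standard readout of FGF signalling. Its normalised log2 signals were 14.12 and 14.26 in the control-labelled samples and 13.60 and 13.43 in the NOGGIN-labelled samples, with no overlap. The log2 ratio was -0.52 and -0.82, with a mean of -0.67 ± 0.21 (SD, n = 2), a 95% confidence interval from -0.92 to -0.42 and an adjusted p of 0.0225 in limma. Dusp4 and Dusp5, which encode nuclear phosphatases of the same family, gave other values. Dusp4 had signals of 8.01 and 8.22 in the control-labelled and of 8.03 and 8.0 in the NOGGIN-labelled samples, and a mean log2 ratio of -0.10 ± 0.17 (adjusted p = 0.585, limma, n = 2). Dusp5 had 7.87 and 7.87 against 7.94 and 7.90, and a mean log2 ratio of 0.05 ± 0.03 (adjusted p = 0.745, limma, n = 2). Their 95% confidence intervals ran from -0.33 to 0.13 and from -0.13 to 0.24, so a difference of the size of that in Dusp6 lay outside both. The log2 ratio of Dusp6 minus that of Dusp4 was -0.54 and -0.61 on replicates 1 and 2, and minus that of Dusp5 it was -0.59 and -0.85. These differences were not tested.

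**Figure D2:**
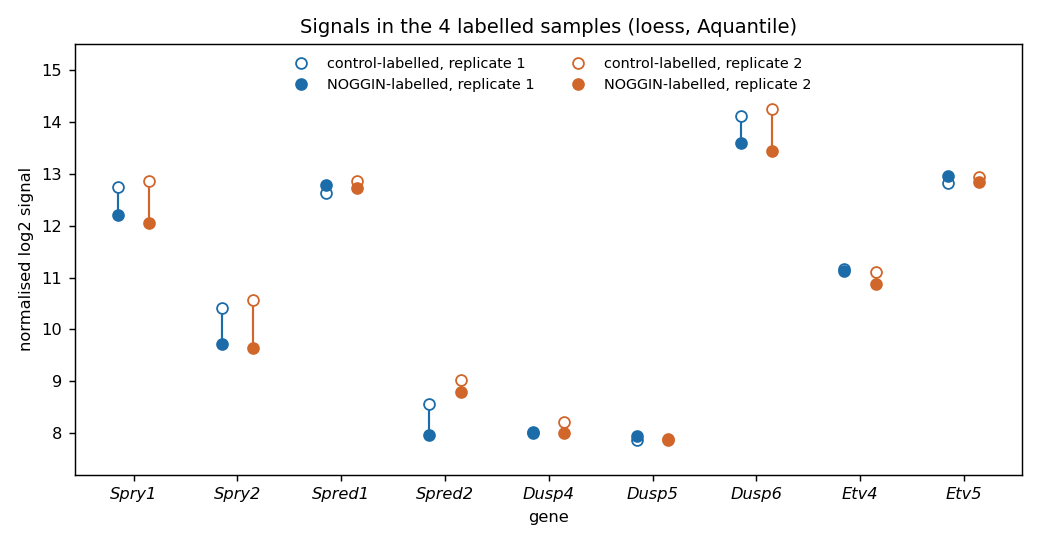
Normalised log2 signal (vertical axis) of 9 ERK feedback genes in the 4 labelled samples, open for control-labelled and filled for NOGGIN-labelled, with lines joining the 2 channels of an array. The filled points of Spry1, Spry2 and Dusp6 lie below the open ones on both arrays, and levels of different genes are not comparable because each rests on its own probe.

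The promoters of the 3 genes that were lower together are shown because ETS factors, Etv4 and Etv5 among them, bind sites with a GGAA core. Each line gives the 250 bases upstream of a RefSeq start in GRCm38.p6, 5′ to 3′ on the strand of the gene, with the ETS core GGAA or its reverse complement TTCC in capitals. Spry1 lies at chr3:37639697-37639946 on the plus strand, Spry2 at chr14:105896820-105897069 on the minus strand and Dusp6 at chr10:99262981-99263230 on the plus strand.
Spry1: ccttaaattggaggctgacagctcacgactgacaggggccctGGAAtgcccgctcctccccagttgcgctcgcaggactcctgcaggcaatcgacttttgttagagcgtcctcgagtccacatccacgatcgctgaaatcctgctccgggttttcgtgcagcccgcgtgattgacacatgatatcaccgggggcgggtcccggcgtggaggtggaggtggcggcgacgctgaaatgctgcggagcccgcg
Spry2: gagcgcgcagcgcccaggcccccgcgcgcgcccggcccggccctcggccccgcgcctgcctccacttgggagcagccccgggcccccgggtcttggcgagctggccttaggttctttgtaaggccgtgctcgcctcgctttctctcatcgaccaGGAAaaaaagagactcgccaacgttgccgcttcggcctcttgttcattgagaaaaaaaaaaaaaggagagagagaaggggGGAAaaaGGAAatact
Dusp6: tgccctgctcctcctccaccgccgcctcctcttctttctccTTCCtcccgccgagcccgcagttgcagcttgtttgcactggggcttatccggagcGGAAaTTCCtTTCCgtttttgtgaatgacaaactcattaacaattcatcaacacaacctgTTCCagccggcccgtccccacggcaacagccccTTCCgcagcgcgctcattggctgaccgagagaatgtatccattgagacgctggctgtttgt
The core occurred 1 time in the Spry1 window, 3 times in that of Spry2 and 6 times in that of Dusp6, counting both strands. A median of 3 was found over 32851 promoter windows of the same length, and 93.4% of them held at least 1. RefSeq promoter entries were matched for 7 of the 10 members, in 8 windows, and not for Spry4, Dusp4 and Etv4. The windows of members that did not pass held 4 cores (Spred1), 7 (Spred2), 3 (Dusp5) and, at the 2 starts of Etv5, 4 and 0, so the count did not separate the genes that passed from the others. The longer ETS motif CCGGAAG was in 0 of the 8 windows and in 6.91% of all, and the cyclic AMP response element TGACGTCA was in 0 of 8 and in 1.55% of all. A SMAD-binding motif, GGCGCC, was in the windows of Spred1, Dusp5 and 1 start of Etv5, and in 9.59% of all windows. This motif is all G and C, and these windows held 70.8%, 64% and 71.2% G and C. The other member windows held between 56% and 62.4%, and the median over all windows was 52.4%. The part of base content in the matches was not tested. These matches describe letters in the windows and not binding.

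SPRED proteins hold back RAF activation and bring the RAS inhibitor neurofibromin to the membrane. Spred2 had signals of 8.56 and 9.02 in the control-labelled samples and of 7.97 and 8.79 in the NOGGIN-labelled samples, so the groups overlapped although each array gave a lower NOGGIN-labelled value. Its log2 ratio was -0.59 on replicate 1 and -0.23 on replicate 2, with a mean of -0.41 ± 0.26 (95% confidence interval from -0.68 to -0.14, adjusted p = 0.0967, limma, n = 2). It was the member with the largest spread between arrays. Spred1 had signals of 12.63 and 12.85 in the control-labelled and of 12.79 and 12.73 in the NOGGIN-labelled samples, and a mean log2 ratio of 0.02 ± 0.20 (95% confidence interval from -0.22 to 0.26, adjusted p = 0.933, limma, n = 2). Its 3 probes did not give the same value. A second probe of the same transcript gave 0.20 and -0.12, whereas the probe of another Spred1 transcript gave -0.27 and -0.22, below 0 on both arrays. This last probe was dim, with raw mean signals of 341 and 136 in the control-labelled and of 140 and 237 in the NOGGIN-labelled samples. The probe used had 7850 and 6190 against 5566 and 8373.

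Etv4 and Etv5 encode related ETS factors that act downstream of GDNF-RET and FGF signals in the kidney. Etv4 had signals of 11.16 and 11.11 in the control-labelled samples and of 11.13 and 10.88 in the NOGGIN-labelled samples, and a mean log2 ratio of -0.13 ± 0.15 (95% confidence interval from -0.34 to 0.09, adjusted p = 0.45, limma, n = 2). Its second probe gave 0.10 on replicate 1 and -0.38 on replicate 2. Etv5 had 12.81 and 12.93 against 12.95 and 12.83, and a mean log2 ratio of 0.02 ± 0.17 (95% confidence interval from -0.20 to 0.25, adjusted p = 0.918, limma, n = 2). Neither passed, and a reduction as large as that of Spry1 lay outside both intervals. The log2 ratio of Spry2 minus that of Etv5 was -0.82 on each array, and that of Spry1 minus Etv5 was -0.68 and -0.71, differences that were not tested.

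Within the set, 5 genes were below 0 on both arrays, 1 was above 0 on both and 3 had opposite signs. Of all genes, 33.1% were below 0 on both arrays and 33.3% had opposite signs. The arrays did not give the members the same level. Replicate 2 was lower than replicate 1 in 8 of 9 members, Spred2 being the exception, against 54.5% of all genes, and the median difference was -0.24 for the members and -0.02 for all genes. The SD between arrays had a median of 0.169 in the members and of 0.0853 in all genes. Replicate and dye orientation cannot be told apart, and the cause was not tested. The differences of Spry1, Spry2 and Dusp6 from the members near 0 were closer between arrays than their own ratios. Spry2 minus Dusp4 was -0.70 on both arrays, and Spry1 minus Spred1 was -0.70 and -0.68, among the closest of these pairs. With Dusp5 they were only slightly closer: Spry1 minus Dusp5 was -0.61 on replicate 1 and -0.83 on replicate 2. With Spred2 they were not closer: Dusp6 minus Spred2 was 0.07 on replicate 1 and -0.59 on replicate 2.

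**Figure D3:**
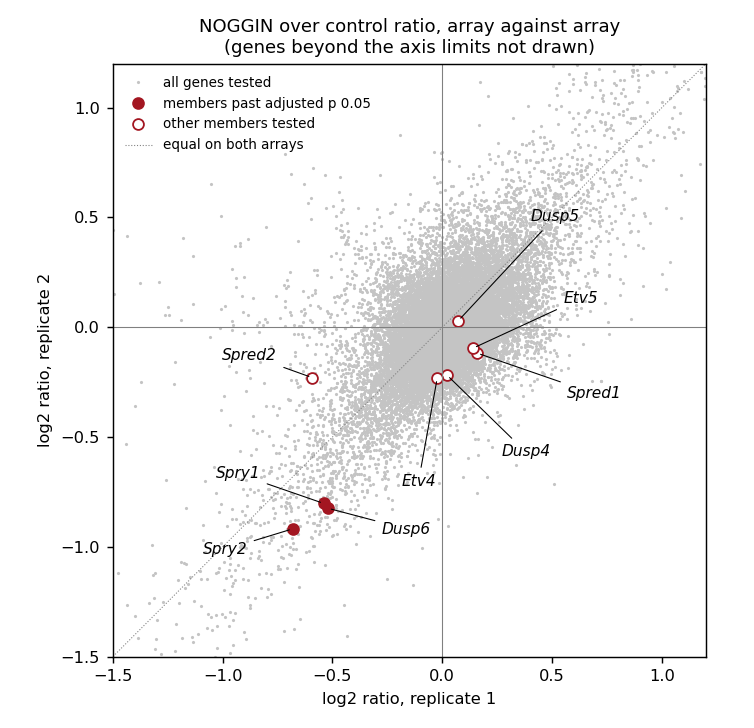
Log2 ratio of NOGGIN-labelled over control-labelled channel on replicate 1 (horizontal axis) and replicate 2 (vertical axis) for 21337 genes in grey, with 9 ERK feedback genes marked and named. Spry1, Spry2 and Dusp6 lie at the lower left, and every member except Spred2 lies below the diagonal.

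The calls on Spry1, Spry2 and Dusp6 held under 11 of 12 other settings computed from the scanner files. Many of these settings could not alter the log2 ratios of these genes, which had 1 kept probe each. Scaling of signals between arrays, the probe filters, the mean over probes and the other tests could change only the p-values. The ratios were recomputed with other background treatments, Agilent's processed signals, the median over spots and median centring. Spry1, Spry2 and Dusp6 also passed in the values of the authors' deposited table, whose sign was turned for this and which as deposited has the reverse direction. The calls were lost with median centring in place of the intensity-dependent loess, where no gene in the whole table passed in limma and 3572 had an unadjusted p below 0.05. There the log2 ratios were -0.72, -0.82 and -0.75, and the adjusted p in limma was 0.12, 0.108 and 0.102.

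**Figure D4:**
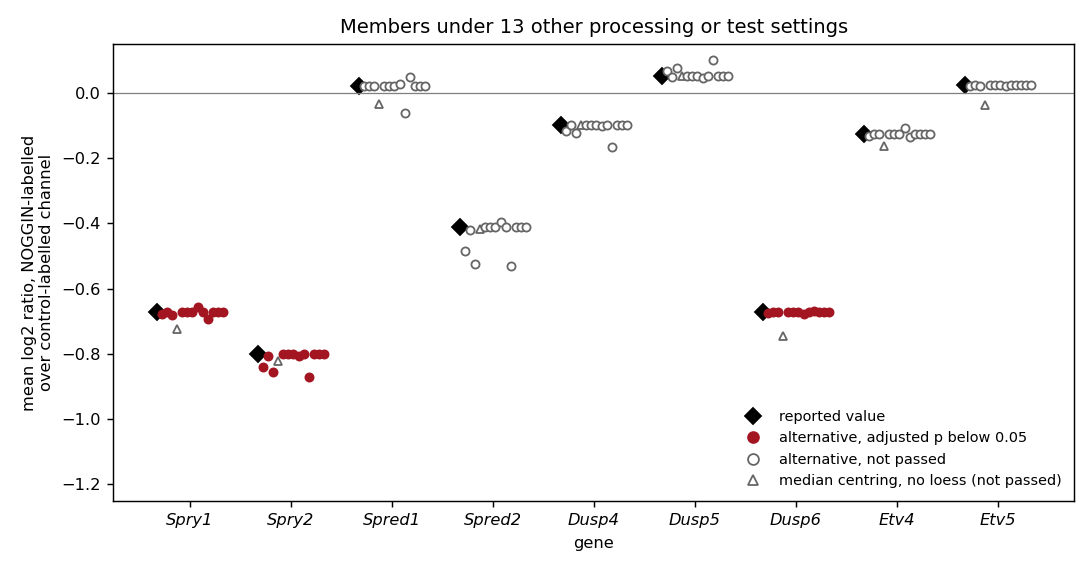
Mean log2 ratio (vertical axis) of 9 ERK feedback genes under the reported setting (diamond) and 13 others (circles, filled where the adjusted p was below 0.05, and a triangle for median centring), 1 of which is the authors' deposited table with its sign turned. Spry1, Spry2 and Dusp6 lie between -0.86 and -0.66 in the 12 settings computed from the scanner files, and Spry2 is at -0.87 in the turned deposited table. Of the 13, the calls on Spry1, Spry2 and Dusp6 are lost with median centring. Settings that vary only filter, scaling between arrays, mean over probes or test repeat their reported ratios.

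The rest of the pathway was read from 7 related lists, chosen with earlier results of these data known, so their counts are descriptions and not tests. Of all genes, 4.03% were lower, 3.95% were higher and 23.2% had an unadjusted p below 0.05 in limma. That last share was 50% in the FGF ligand list, 26.3% in receptor tyrosine kinases and 52.6% in other inhibitors. It was 22.2% in other ETS factors and 50% in other ERK response genes. In the list named FGF ligands, 4 of 14 tested genes were lower and 1 was higher, with a median log2 ratio of -0.08. The list also holds Fgf11, Fgf12, Fgf13 and Fgf14, intracellular members of the family that are not secreted ligands, and none of these passed. Fgf21, among the 4 lower genes, was not above background in every sample, and 3 were lower where signal was required in both conditions. Fgf18, which is expressed in several developing mesenchymes, was lower, at a log2 ratio of -2.77 ± 0.25 (adjusted p = 0.00338, limma, n = 2), with -2.59 and -2.95 on the arrays. Fgf9, which signals from epithelium to mesenchyme in several organs, had a log2 ratio of -0.71 ± 0.12, and Fgf5 one of -0.71 ± 0.03. Fgf21 was above background in both control-labelled but in 1 of 2 NOGGIN-labelled samples, so the size of its ratio is uncertain. The log2 ratio was -1.35 ± 0.12 as reported, -2.42 with Agilent's processed signals and -2.35 in the authors' deposited table with its sign turned. Fgf7, a mesenchymal ligand of epithelial FGF receptors, was higher at 0.66 ± 0.04. Fgf10 (-0.13) and Fgf23 (0.09) did not pass.

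Among receptor tyrosine kinases, 3 of 19 were higher and 0 were lower, with a median of 0.03. Fgfr3, an FGF receptor, was higher by 1.43 ± 0.10 (adjusted p = 0.00343, limma, n = 2), and Kit, the receptor of stem cell factor, by 0.79 ± 0.01. Fgfr2, the epithelial receptor of Fgf7 and Fgf10, was higher by 0.39 on both arrays, a call that was lost under 4 of 15 alternatives, among them Agilent's processed signals (adjusted p = 0.0768, limma). Fgfr1 (0.09) and Pdgfra (-0.25) did not pass. Of the 27 tested genes of the cascade from adaptors to ERK, 0 passed in limma and 3, or 11.1%, had an unadjusted p below 0.05, against 23.2% of all genes, and their log2 ratios ran from -0.20 to 0.28. Ptpn11, the phosphatase SHP2, was at 0.15.

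Among other inhibitors of receptors or of ERK signalling, 7 of 19 were lower and 1 was higher, with a median of -0.08. Lrig1, which promotes the breakdown of ERBB receptors, was lower, at a log2 ratio of -2.22 ± 0.28 (adjusted p = 0.00341, limma, n = 2), and so was the related Lrig3, at -1.64 ± 0.04. Shisa2, which retains FGF and WNT receptors in the cell, was at -0.74 ± 0.21 and its relative Shisa3 was higher at 0.64 ± 0.03. Il17rd, the FGF antagonist SEF, was at -0.57 ± 0.08 and passed. Pebp1 (-0.08) and Errfi1 (-0.21) did not. With Agilent's processed signals 4 of the list were lower.

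Of the other dual-specificity phosphatases, 0 of 13 passed in limma and 5, or 38.5%, had an unadjusted p below 0.05, against 23.2% of all genes, and their log2 ratios ran from -0.35 to 0.17. Dusp7, a cytoplasmic ERK phosphatase like Dusp6, was at -0.34 ± 0.19 (adjusted p = 0.102, limma, n = 2) and Dusp3 at -0.23. Of the other ETS factors, 1 of 18 was lower: Ehf, an epithelial ETS factor, at -0.66 ± 0.04. Elk1 (0.32) and Ets2 (-0.09) did not pass. The Elk1 probes differed: the one used gave 0.04 and 0.59 on replicates 1 and 2, and the other gave 0.02 and -0.32. Of other genes that respond to ERK, 5 of 26 were lower and 1 was higher, with a median of -0.18. The transcription factor gene Jun was lower, at -0.73 ± 0.09. So were the immediate early genes Ier5 (-0.71 ± 0.02) and Ier2 (-0.59 ± 0.0016) and the kinase gene Plk3 (-0.45 ± 0.01). Spp1, which encodes osteopontin, was higher at 0.50 ± 0.15, a call that was lost under 5 of 15 alternatives. Cxcl12 (0.26) and Ccnd1 (0.24) did not pass.

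**Figure D5:**
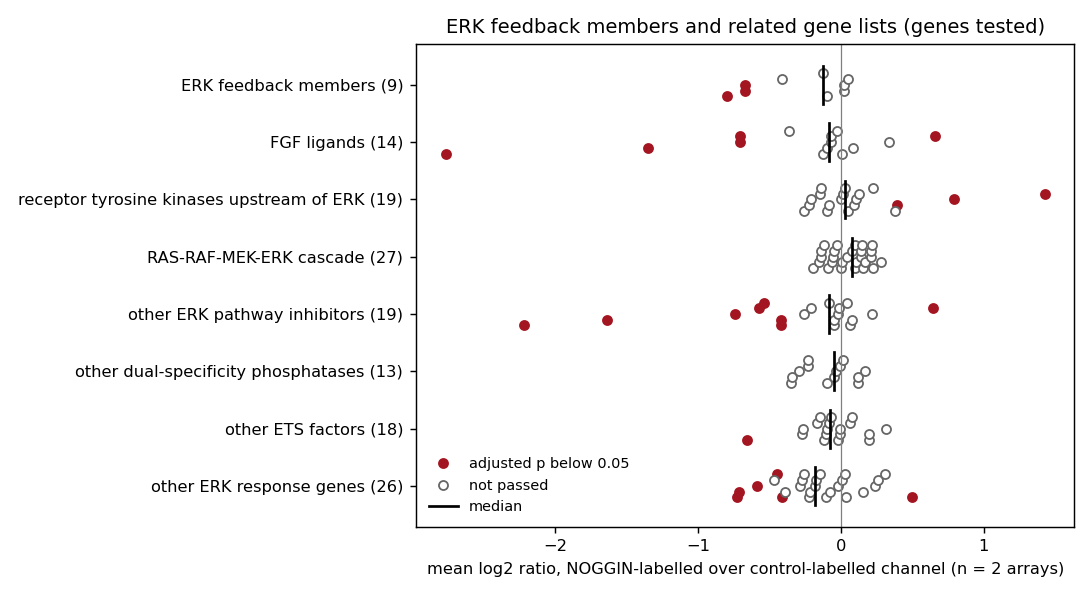
Mean log2 ratio (horizontal axis) of each tested gene in the ERK feedback set and 7 related lists (rows, number tested in brackets). Filled points passed an adjusted p of 0.05, and vertical bars mark medians, which lie between -0.18 and 0.08.

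Cell type markers were set beside these values, by count and by summed linear signal, a sum that the brightest probes of a list dominate. These lists too were chosen with earlier results known, and of all genes 4.03% were lower and 3.95% were higher. Ureteric epithelium was present in all 4 labelled samples: all 12 epithelial markers were measured, with a summed linear signal of 274862 and 300645 in the control-labelled and of 305535 and 301331 in the NOGGIN-labelled samples. Of the 12, 1 was higher, Foxa1 (0.55), and 1 was lower, Cldn4 (-0.55). Smooth muscle markers were lower in 5 of 8, with sums of 508309 and 499784 against 245707 and 256998, and renal stroma markers in 4 of 6, with 106834 and 124922 against 62727 and 59339. Ureteric mesenchyme markers were higher in 2 and lower in 3 of 10, with sums of 668627 and 677783 against 549710 and 567124. Aldh1a2 (-0.88) and Col1a2 (-0.43), which are bright, were lower, and so was Ptch1 (-0.43). The transcription factor genes of the list did not move together. Tbx18 (1.25) and Tcf21 (0.62) were higher, while Foxf1 (0.0087), Tshz3 (0.05) and Hand2 (0.25) did not pass. Nephron progenitor markers were higher in 1 and lower in 2 of 8, with sums of 49342 and 46999 against 59267 and 61502. Markers of neural crest and neurons were higher in 1 and lower in 1 of 8, with sums of 84825 and 89387 against 113737 and 98786. Bud tip markers, which share Spry1, Etv4 and Etv5 with the members, were lower in 3 of 9, with sums of 23874 and 24446 against 21961 and 19381 and with Ret at 0.05 and Wnt11 at -0.51. Endothelial, immune and red blood cell markers passed in 0 of 8, 0 of 10 and 0 of 5 in limma, and 2, 5 and 0 had an unadjusted p below 0.05, against 23.2% of all genes. The median log2 ratio was 0.12 in the endothelial list, whose mean ratios ran from 0.0030 to 0.34, and -0.28 in the immune list, whose mean ratios ran from -0.49 to -0.05. The summed signals were 34453 and 38152 against 37696 and 44067 for endothelium, 43352 and 30639 against 31317 and 30441 for immune cells, and 496002 and 418174 against 456577 and 471560 for red blood cells. The part of any of these cell types in the lower Spry1, Spry2 and Dusp6 was not tested.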

How the data were processed

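Intensities of spots, unlogged, come from the deposited scanner files. The submitters' processing notes name Agilent Feature Extraction 10.7.3.1. A red-over-green log10 ratio stands in the same files, computed by that software per the file headers, and served only as a check. A table deposited by the authors gives each probe a signed fold change per array. Its numerator is given only by the order in the sample titles, NOGGIN treated vs control. Its normalisation is not stated in the labels or headers, and both columns have median 1. Among 10668 brighter probes, its log2 values correlated at r = -0.980 and -0.985 with the ratios oriented by the labels on the same array. The labels' protocols state 200 ng of total RNA as the input for each labelling. Both arrays lie on 1 slide and in 1 scan.

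Each array was background-corrected (normexp, offset 50) and loess-normalised in limma 3.58.1 under R 4.3.3. Outlier spots, 3.69% on each array, were left out. The usual 4 spots of a probe were averaged. A probe was kept where over 0.5 of its spots were well above background on both arrays in either condition. Median signals were 520.7 and 310.6 in the control and 288.3 and 531.8 in the NOGGIN channels, which followed the dye. Accessions were matched to RefSeq symbols (GRCm38.p6) for 28328 of 39429 probes. The brightest kept probe stood for a gene. The mean of 2 dye-turned ratios was tested per gene (lmFit, eBayes, two-sided, Benjamini-Hochberg over 21337 genes, 1 residual degree of freedom). The eBayes prior, taken from all genes, had 4.12 degrees of freedom and an SD of 0.113. It carried more weight in each variance than the gene's own spread. The arrays correlated at r = 0.702 across genes, which are not independent replicates. Signals by sample come from loess followed by Aquantile scaling. The code was tested on simulated data.

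The members and all lists were chosen with earlier results of these data known. Named genes are all members and, from each related list, up to 5 that passed, by size, and up to 2 bright ones that did not. A gene that this rule names is not reported here. Alternatives varied background, normalisation, probe filter, spot and probe summary, test, threshold and source of values. Those on the related lists and on genes outside the set were chosen after seeing the data.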

Additional observations from a re-analysis of the deposited data

How the results depend on the processing

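Median centring of each array in place of loess left 0 genes and 0 members past the threshold, and 0 in each related list. The 1.5-fold rule on both arrays gave 618 genes and 1 member, Spry2, and an adjusted p of 0.1 gave 2691 genes and 4 members, Spred2 being added. The other settings gave between 1418 and 2002 genes and the same 3 members each. For Spry1, Spry2 and Dusp6, settings that varied only filter, Aquantile scaling, mean over probes or test kept the reported ratios. Leaving out an array gave a median log2 ratio of the members between -0.229 (without replicate 1) and -0.0226 (without replicate 2), values with no test because no residual degrees of freedom remain. Signs turned in genes that did not pass: with median centring Spred1 was at -0.035, Etv5 at -0.036 and Fgfr1 at -0.0034, and with the mean over probes Spred1 was at -0.062. The other inhibitors numbered 5 with Agilent's processed signals and 4 under the 1.5-fold rule, against 8 as reported, and the other response genes 3 under that rule, against 6. At an adjusted p of 0.1, 2 other phosphatases and 1 cascade gene passed, against 0. Without the filter Spry4 was at -0.09 (adjusted p = 0.868, limma). The cause of these changes was not tested. No separate paired analysis was run because each array's ratio already holds the pair of samples, so the reported test is itself paired. Signal over background limits Spry4.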
